A study of Homo sapiens with 72 samples.

Results

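The small nuclear RNA activating complex (SNAPC) was followed through its 5 subunit genes, SNAPC1 to SNAPC5, which were chosen by their Ensembl gene identifiers from the 60371 genes listed in the files. The set was selected on readout: SNAPC1 had been seen to rise with homoharringtonine and to be high in DMSO replicate 10, a shallow library, so those 2 patterns are described here with their values and without a test. The cells were U2OS, a human osteosarcoma line, treated for 12 h in separate wells and profiled by poly(A)-selected, stranded RNA-seq. Of 72 wells, 18 received DMSO and 54 received 1 of 6 compounds at 100, 1000 or 10000 nM, with 3 wells for each compound and dose. The compounds, with the codes that label them, were triptolide (JAA804), which blocks the TFIIH helicase XPB and with it transcription by RNA polymerase II, homoharringtonine (LEE837), which blocks translation elongation on the ribosome, pyrazolanthrone (AML108), a JNK inhibitor, nilotinib (AMN107), a tyrosine kinase inhibitor, miglitol (BGW675), an alpha-glucosidase inhibitor, and MK-2206 (LHD510), an allosteric AKT inhibitor. All wells of the study share the same line, so no genotype differs between the groups. The labels do not say whether the wells of a group were separate cultures from separate days, and p-values therefore measure the spread between these wells.

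SNAPC recognises the proximal sequence element of small nuclear RNA (snRNA) promoters. It serves RNA polymerase II at the U1, U2, U4 and U5 genes and RNA polymerase III at the U6, 7SK, RMRP and RPPH1 genes, where it works with TBP and with TFIIIB that contains BRF2. SNAPC4 is the largest subunit and carries the Myb repeats that contact DNA, SNAPC3 is a zinc-binding subunit that contacts DNA beside it, and SNAPC1 joins them in the core of the complex. SNAPC2 and SNAPC5 are the accessory subunits. Its RNA products largely lack a poly(A) tail, so a poly(A)-selected library reads the subunits' mRNAs well and most of their target RNAs poorly.

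The genes were placed on GRCh38 with GENCODE release 44. SNAPC1 (ENSG00000023608) lies at chr14:61762420-61796428 on the plus strand, SNAPC2 (ENSG00000104976) at chr19:7920338-7923250 on the plus strand, SNAPC3 (ENSG00000164975) at chr9:15422734-15465953 on the plus strand, SNAPC4 (ENSG00000165684) at chr9:136375567-136400176 on the minus strand, and SNAPC5 (ENSG00000174446) at chr15:66490135-66497780 on the minus strand. SNAPC1 overlaps a long noncoding RNA gene (ENSG00000258964) on its own strand, which had a median of 0 counts in DMSO wells. SNAPC3 overlaps PSIP1 on the opposite strand over 1888 bases, and SNAPC5 overlaps MAP2K1 on the opposite strand over 1522 bases and another such gene (ENSG00000261351) on its own strand. The strand setting of the counting is not given in the sources used here, so reads in those shared stretches cannot be assigned with certainty. SNAPC1 and SNAPC4 are each listed with 1 transcript, SNAPC2 with 6, SNAPC3 with 7 and SNAPC5 with 8.

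RefSeq promoter windows on GRCh38.p14 were found for SNAPC1, SNAPC2, SNAPC3 and SNAPC5, and none for SNAPC4. The 250 bases before the start site are shown, 5′ to 3′ on the plus strand, for SNAPC1 and SNAPC2, the members with the highest rise under homoharringtonine and the deepest fall under triptolide. The windows are chr14:61762170-61762419 and chr19:7920088-7920337, each ending at the base before the annotated gene start. Capitals mark every match to the motifs searched.
SNAPC1: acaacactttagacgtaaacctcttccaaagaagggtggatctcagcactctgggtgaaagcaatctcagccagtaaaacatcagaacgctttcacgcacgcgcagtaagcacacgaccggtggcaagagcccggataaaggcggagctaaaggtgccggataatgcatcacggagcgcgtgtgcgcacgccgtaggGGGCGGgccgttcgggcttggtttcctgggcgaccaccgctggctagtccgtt
SNAPC2: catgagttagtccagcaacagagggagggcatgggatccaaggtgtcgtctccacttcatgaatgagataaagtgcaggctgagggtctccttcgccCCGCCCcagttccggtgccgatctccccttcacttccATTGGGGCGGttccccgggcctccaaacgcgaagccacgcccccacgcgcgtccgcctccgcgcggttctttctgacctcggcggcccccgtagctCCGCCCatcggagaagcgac
The motifs searched on both strands were the TATA box TATAAA, the CCAAT box CCAAT, the GC box GGGCGG, the CRE TGACGTCA, the AP-1 site TGANTCA, the E-box CACGTG and the EGR site GCGGGGGCG. SNAPC1 held 1 GC box, which began 53 bases before the start site, and no other match. SNAPC2 held 3 GC boxes, of which that which began 112 bases before the start overlapped a reverse-strand CCAAT box that began at 116 bases. GC boxes were present in 42.6% and CCAAT boxes in 32.0% of 35116 RefSeq windows of this length, so the matches are common ones. A TATA box, present in 10.7% of windows, was matched in none of the 5 windows listed for the members (SNAPC2 has a second window with 7 GC boxes). The window of SNAPC1 held 57.6% G and C and that of SNAPC2 64.4%, beside a median of 58.0% over all windows.

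The libraries held 10514272 to 68296309 expected counts in 69 wells. The other 3 were shallower: DMSO replicate 10 with 460014 counts, triptolide 100 nM replicate 2 with 70767 and triptolide 1000 nM replicate 1 with 9628355. Libraries also differed in how counts moved with base composition. The slope of log2 expression on transcript GC content, over 9544 genes and relative to the DMSO median, ran from -0.44 to 0.288 per 10 percentage points of GC in DMSO wells, from -0.628 to 0.068 over all homoharringtonine wells and from -0.123 to 0.364 over all triptolide wells. The transcripts of SNAPC1 held 36.9% GC, lower than all but 1.5% of those genes, and those of SNAPC3 held 42.6%. Those of SNAPC2 and SNAPC4 were GC-rich, at 63.8% and 63.1%, and those of SNAPC5 held 47.7%. Of the 8 osteoblast-lineage markers, 5 had a median of at least 1 TPM (transcripts scaled to gene length and library total) in DMSO wells, led by SPARC at 2140 and COL1A1 at 452, while SP7 was at 0. Of 6 markers of blood, epithelium and endothelium only EPCAM did, at 2.38. The summed TPM of the 8 osteoblast-lineage markers was 1780 to 3510 in DMSO wells, 3840 to 5120 with 10000 nM triptolide and 276 to 343 with 10000 nM homoharringtonine, and that of the other 6 markers was between 0.0 and 7.46 in these groups. The part of these shifts in the members' values was not tested.

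In DMSO wells all 5 subunit mRNAs were present, and SNAPC1 was the most abundant per transcript length. SNAPC1 had a mean of 104.9 TPM ± 59.3 (SD, n = 18), with a lowest well of 53.4, a median of 85.6 and a highest of 304. That highest well was DMSO replicate 10, whose SNAPC1 level took part in the choice of the genes. Without it SNAPC1 had 93.2 ± 33.2 TPM (n = 17), with a highest well of 187.4. The tests of this paragraph include replicate 10. SNAPC5 followed at 42.8 ± 3.86 TPM and SNAPC2 at 42.6 ± 8.53 TPM, and both lay far above SNAPC3 at 10.2 ± 1.36 TPM and SNAPC4 at 7.69 ± 1.81 TPM (n = 18 each). The largest subunit of the complex thus had the lowest mRNA level on the TPM scale. SNAPC4 and SNAPC3 differ in GC content (63.1% and 42.6%), and the gene length behind the TPM of SNAPC3 ran from 1009 to 2615 bases in DMSO wells. The part of both in the order of these 2 genes was not tested. SNAPC1 exceeded SNAPC5 in 18 of 18 wells by 1.15 ± 0.59 on the log2(TPM + 0.1) scale (two-sided paired permutation test, adjusted p = 2e-05 over 4 pairs of neighbours; its unadjusted p of 1e-05 is the smallest that 100000 resamples can give). SNAPC2 exceeded SNAPC3 in 18 of 18 wells by 2.03 ± 0.34 (permutation test, adjusted p = 2e-05), and SNAPC3 exceeded SNAPC4 in 16 of 18 by 0.43 ± 0.35 (permutation test, adjusted p = 0.0002). SNAPC5 and SNAPC2 differed by 0.03 ± 0.34, which was within the spread between wells (permutation test, adjusted p = 0.76).

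All following levels are CPM, counts scaled to the library total, after TMM scaling over all wells (normalised CPM), which compare 1 gene between wells and not genes with each other. In DMSO replicate 10 SNAPC1 stood at 454 normalised CPM, while the other 17 DMSO wells had a lowest value of 94.5, a median of 144 and a highest of 286.5. Its 259 counts gave an exact 95% Poisson interval of 400 to 513, which covers counting error only. In that well SNAPC4 (36.8, from 21 counts) and SNAPC5 (24.5, from 14 counts) were also above the other 17 wells, and SNAPC2 (17.5, from 10 counts) and SNAPC3 (5.26, from 3 counts) were below them. The counting intervals of those 4 genes were 22.8 to 56.2 for SNAPC4, 13.4 to 41.2 for SNAPC5, 8.40 to 32.2 for SNAPC2 and 1.08 to 15.4 for SNAPC3.

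Among the 17 deeper DMSO wells the members' levels moved with the GC slope of the library, a relation that was examined after the data were seen, as 1 of 8 with the RSEM lengths described further on. SNAPC3 was lower where the slope was higher, with Pearson's r = -0.917 (permutation p = 5e-05, the smallest that 20000 permutations can give, adjusted p = 0.00013) and Spearman's rho = -0.873 (permutation p = 5e-05, adjusted p = 0.0001). SNAPC1 was likewise lower, with r = -0.809 (permutation p = 0.0001, adjusted p = 0.00016) and rho = -0.718 (permutation p = 0.0015, adjusted p = 0.0025). SNAPC2 was higher, with r = 0.888 (permutation p = 5e-05, adjusted p = 0.00013) and rho = 0.885 (permutation p = 5e-05, adjusted p = 0.0001). SNAPC4 had r = 0.484 (permutation p = 0.052, adjusted p = 0.069) and rho = 0.569 (permutation p = 0.019, adjusted p = 0.025), and SNAPC5 had r = -0.11 (permutation p = 0.68, adjusted p = 0.68) and rho = -0.135 (permutation p = 0.6, adjusted p = 0.6). Without the 2 wells farthest from the median slope, r was -0.859 for SNAPC3, -0.661 for SNAPC1, 0.847 for SNAPC2, 0.439 for SNAPC4 and 0.138 for SNAPC5. The slope is itself fitted across genes by their GC content, so a gene of low or high GC content is likely to follow it. The share of all genes that do was not computed, and these tests are a description of the members only. For SNAPC1, SNAPC2 and SNAPC3 part of the spread between wells of 1 group ran along this slope, and a fit with the slope as a covariate was added for the comparisons with DMSO. The direct comparisons and dose trends were not fitted with it.

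**Figure D1:**
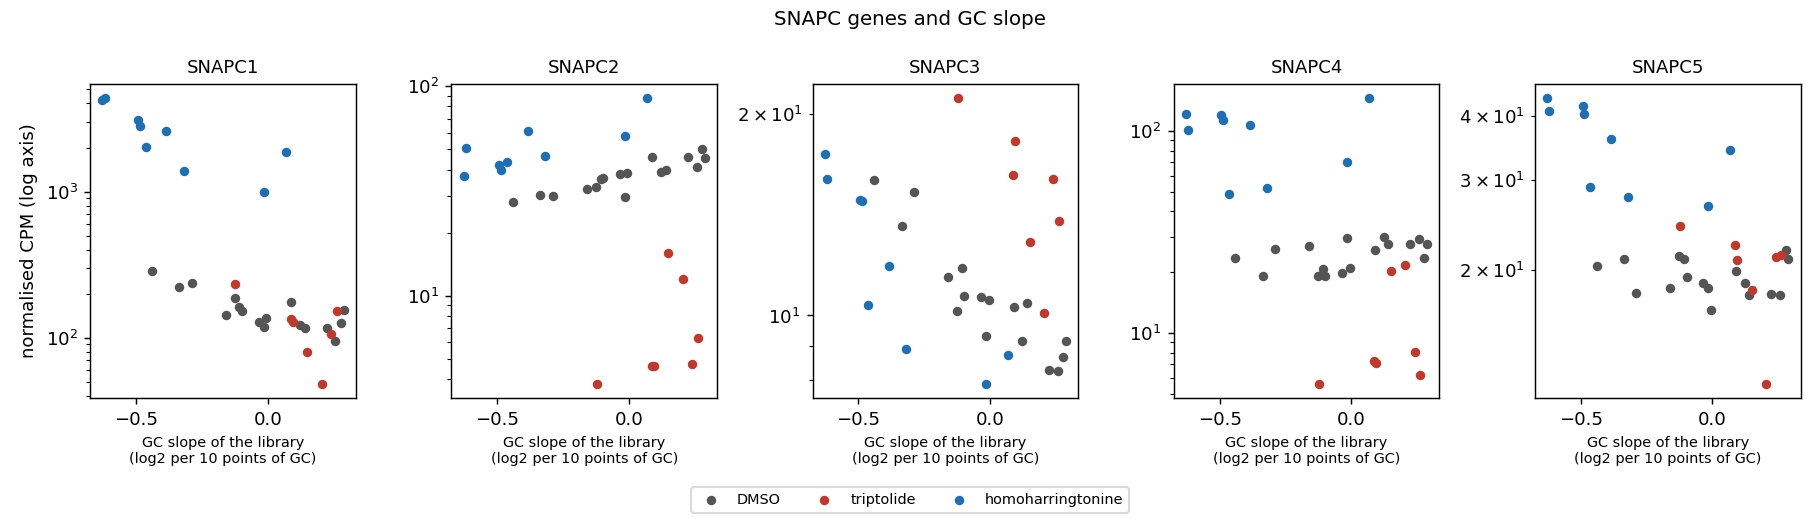
Normalised CPM of each member (log axis) against the GC slope of the library, 1 point per well, for DMSO, triptolide and homoharringtonine wells, without the 3 shallow libraries. Among the 17 DMSO wells SNAPC2 climbs and SNAPC1 and SNAPC3 fall with the slope, while SNAPC5 shows no such course (r = -0.11).

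With homoharringtonine SNAPC1, SNAPC4 and SNAPC5 were higher at every dose, and SNAPC2 and SNAPC3 passed the test at some doses only. SNAPC1 reached 2004, 1384 and 986 normalised CPM in the 3 wells at 100 nM. Its wells were at 1851, 2612 and 4367 with 1000 nM, and at 3067, 2809 and 4226 with 10000 nM. The 9 wells did not overlap any of the 18 DMSO wells, the highest of which was 454. The fitted log2 fold changes against DMSO were 3.11, 4.10 and 4.27, or 8.63-fold, 17.2-fold and 19.4-fold, and stand without a test because they chose the gene. Without the 3 shallow libraries they were 3.20, 4.22 and 4.39. With the GC slope as a covariate they were 2.75, 3.65 and 3.53, although all 3 wells at 10000 nM had slopes outside the DMSO range. On the length-normalised scale SNAPC1 rose from 104.9 ± 59.3 TPM (n = 18) to 2034 ± 436 TPM (n = 3) at 10000 nM. Its share of the summed TPM of the 5 members was 47.9% ± 11.1 in DMSO wells and 91.8% ± 1.48 at 10000 nM. A well's counts cannot tell fewer cells from less RNA per cell, here or in the results below.

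For SNAPC2 to SNAPC5, which the choice did not use with this compound, 9 of 12 tests over 3 doses passed at an adjusted p under 0.05 (edgeR quasi-likelihood test, 3 wells against 18, Benjamini-Hochberg over all genes tested), all upward. The background was large: of all genes tested, 31.1% were called higher and 32.3% lower at 100 nM. The shares were 35.0% and 33.4% at 1000 nM, and 36.7% and 37.2% at 10000 nM. With the further demand of a log2 fold change beyond 1, 4 of 12 were called, beside 41.5% of genes over the 3 doses. The share of all genes whose wells lay outside the DMSO range was not computed. Such separations, here and with the other compounds below, therefore describe single genes and do not set the members apart from other genes.

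SNAPC4, the large DNA-binding subunit, rose at every dose. Its wells stood at 48.9, 52.3 and 70.1 normalised CPM at 100 nM, 145.8, 107.5 and 100.6 at 1000 nM and 119.5, 113.8 and 121.5 at 10000 nM, against a DMSO range of 19.04 to 36.8 with a median of 25.9. None of the 9 wells overlapped the DMSO wells. The log2 fold changes were 1.22 ± 0.15 (SE, adjusted p = 1.7e-07), 2.25 ± 0.14 (adjusted p = 1.1e-12) and 2.23 ± 0.13 (adjusted p = 1.1e-13).

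SNAPC3, the zinc-binding core subunit, did not follow its partners closely. It stood at 10.4, 8.91 and 7.90 normalised CPM at 100 nM, 8.72, 11.8 and 15.99 at 1000 nM and 14.9, 14.8 and 17.4 at 10000 nM, against a DMSO range of 5.26 to 15.96 with a median of 10.4. Only 2 of the 9 wells lay above all DMSO wells, 1 of them at 1000 nM and 1 at 10000 nM. The log2 fold change was -0.23 ± 0.17 (adjusted p = 0.25) at 100 nM, 0.18 ± 0.18 (adjusted p = 0.38) at 1000 nM and 0.52 ± 0.16 (adjusted p = 0.005) at 10000 nM. With the GC slope as a covariate the last value was -0.07 (adjusted p = 0.57) and the first was -0.49 (adjusted p = 0.00018). The direction at 10000 nM thus changed with the covariate, and at 100 nM it was downward in both fits and called in 1 of them.

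Of the accessory subunits, SNAPC5 rose at every dose and SNAPC2 in the lower 2 doses. SNAPC5 was at 29.1, 27.9 and 26.7 normalised CPM, then 34.4, 36.2 and 41.0, then 41.9, 40.4 and 43.5, all above the DMSO range of 16.7 to 24.5. Its log2 fold changes were 0.53 ± 0.09 (adjusted p = 1.1e-05), 0.93 ± 0.09 (adjusted p = 1.3e-09) and 1.08 ± 0.08 (adjusted p = 1.4e-11). SNAPC2 was at 43.4, 46.4 and 57.9 at 100 nM, 87.8, 60.8 and 50.9 at 1000 nM and 42.2, 40.0 and 37.3 at 10000 nM, against a DMSO range of 17.5 to 50.0. Only the wells at 1000 nM were all above the DMSO wells. Its log2 fold changes were 0.42 ± 0.17 (adjusted p = 0.031), 0.84 ± 0.17 (adjusted p = 0.00016) and 0.08 ± 0.16 (adjusted p = 0.67). The call at 100 nM did not hold with DESeq2 (adjusted p = 0.053), without the filter (adjusted p = 0.061), with 10 counts required in every well (adjusted p = 0.10), by library size (adjusted p = 0.31), by mitochondrial scaling (adjusted p = 0.47), or without replicate 2 (adjusted p = 0.057) or 3 (adjusted p = 0.24). With the GC slope as a covariate the values at 100 and 10000 nM were 0.70 (adjusted p = 7.8e-08) and 0.63 (adjusted p = 1.3e-05).

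**Figure D2:**
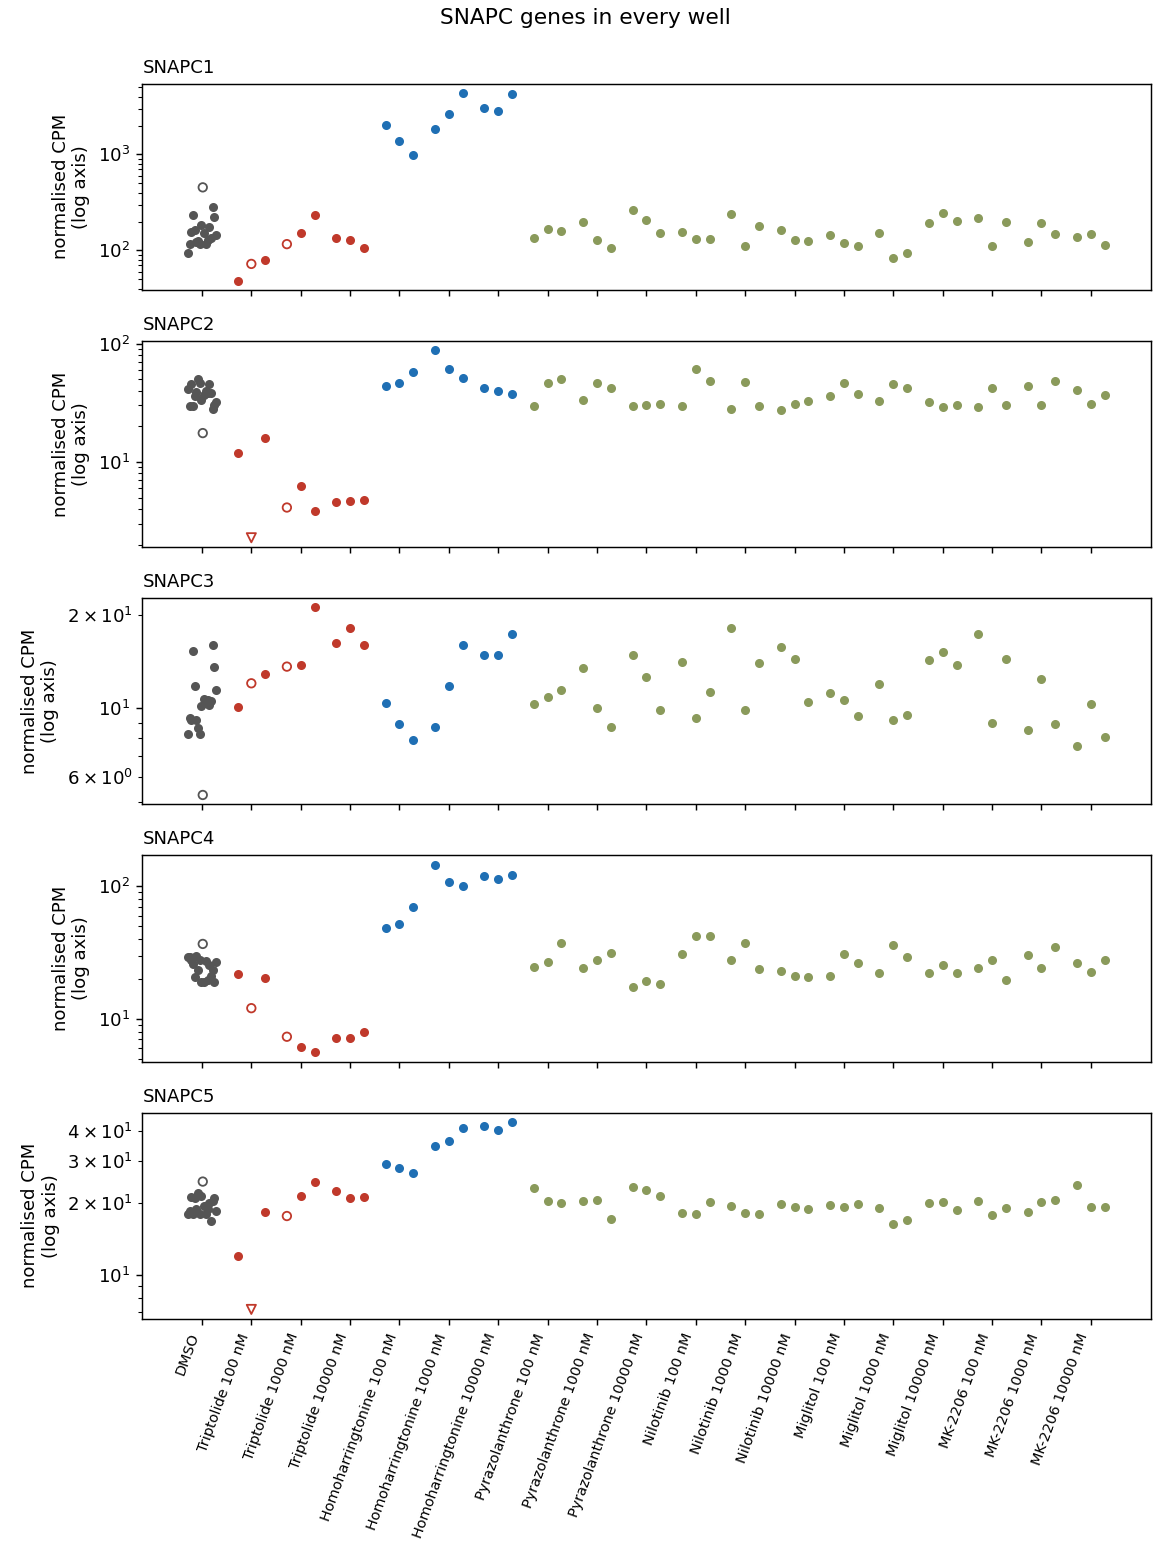
Normalised CPM (log axis) of SNAPC1 to SNAPC5 in all 72 wells, grouped by compound and dose, 1 point per well. Open circles are wells of the 3 shallow libraries and open triangles mark a count of 0, drawn at the foot of the axis. All 9 homoharringtonine wells of SNAPC1, SNAPC4 and SNAPC5 lie above the DMSO wells, and the 8 triptolide wells of SNAPC2 with a count above 0 lie below them. The share of all genes so placed was not computed.

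Triptolide lowered SNAPC2 at every dose and SNAPC4 at the upper 2, while SNAPC1, SNAPC3 and SNAPC5 passed the test at some doses with smaller changes. TMM scaling sets each change against the bulk of the transcriptome. Of 15 tests 9 passed at an adjusted p under 0.05, 2 of them upward and 7 downward. Of all genes tested, 24.5% were called higher and 32.3% lower at 100 nM. The shares were 28.8% and 38.6% at 1000 nM, and 32.2% and 39.7% at 10000 nM. With a log2 fold change beyond 1 as well, 6 of 15 were called, beside 41.0% of genes over the 3 doses.

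SNAPC2 fell furthest. Its wells were at 12.0 and 15.97 normalised CPM in the deeper libraries at 100 nM, at 4.12, 6.28 and 3.81 at 1000 nM and at 4.63, 4.65 and 4.75 at 10000 nM, all below the lowest DMSO well at 17.5. In triptolide 100 nM replicate 2 it had 0 of 70767 counts, which allows a level of up to 42.4 CPM before TMM scaling, so this well gives little information on a fall. The log2 fold changes were -1.44 ± 0.24 (adjusted p = 2e-05), -3.01 ± 0.24 (adjusted p = 7.1e-11) and -3.03 ± 0.22 (adjusted p = 4.8e-12). SNAPC4 fell at the upper 2 doses, to 7.34, 6.16 and 5.61 at 1000 nM and 7.23, 7.12 and 8.03 at 10000 nM, all below the lowest DMSO well at 19.04. Its log2 fold changes there were -1.99 ± 0.20 (adjusted p = 2.5e-09) and -1.77 ± 0.18 (adjusted p = 2.6e-09). At 100 nM its deeper wells, at 21.7 and 20.3, were inside the DMSO range and replicate 2 was at 12.1 from 1 count, with a log2 fold change of -0.25 ± 0.19 (adjusted p = 0.27).

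SNAPC1 fell at the lowest dose of triptolide. It was at 48.5, 72.3 and 79.4 normalised CPM at 100 nM, each below the lowest DMSO well at 94.5, although replicate 2 rests on 5.72 expected counts. The log2 fold change was -1.39 ± 0.40 (adjusted p = 0.0049), and -1.28 ± 0.33 (adjusted p = 0.00195) without the shallow libraries. The main tests of SNAPC1, here and with the other compounds below, include DMSO replicate 10, whose high value took part in the choice. At 100 nM the ratio of mean normalised CPM to DMSO was 0.384 with that well and 0.424 without it. Without replicate 1, which leaves a well of 70767 counts and a deeper one, it was -1.07 and was not called (adjusted p = 0.097). At the upper doses SNAPC1 lay within the DMSO range, at 116.2, 153.2 and 234.9 for 1000 nM and 134.0, 129.0 and 106.7 for 10000 nM. The log2 fold changes were -0.03 ± 0.32 (adjusted p = 0.94) and -0.51 ± 0.32 (adjusted p = 0.16).

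SNAPC3 rose relative to the bulk, to 13.6, 13.8 and 21.2 normalised CPM at 1000 nM and 16.2, 18.2 and 16.03 at 10000 nM. At 10000 nM all 3 wells were above the highest DMSO well at 15.96, and at 1000 nM 1 of 3 was. The log2 fold changes were 0.60 ± 0.17 (adjusted p = 0.004) and 0.61 ± 0.16 (adjusted p = 0.0015), and at 100 nM 0.10 ± 0.21 (adjusted p = 0.70), which was 0.32 (adjusted p = 0.028) with the GC slope as a covariate. The call at 1000 nM did not hold without replicate 3, at 0.36 (adjusted p = 0.13). SNAPC5 was at 17.6, 21.4 and 24.4 at 1000 nM and 22.5, 20.9 and 21.3 at 10000 nM, inside the DMSO range, with log2 fold changes of 0.12 ± 0.10 (adjusted p = 0.34) and 0.10 ± 0.09 (adjusted p = 0.32). At 100 nM it was at 12.0 and 18.3 in the deeper wells and at 0 in replicate 2, with a log2 fold change of -0.41 ± 0.16 (adjusted p = 0.03) that was -0.14 (adjusted p = 0.73) without replicate 1.

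The directions of SNAPC3 and SNAPC5 at 10000 nM triptolide depended on the scaling. SNAPC1 was lower under each scaling there, and its size and call depended on it. Scaling by library size alone shifted the median of all genes at 10000 nM by -0.53 from the TMM value, and scaling by the 13 mitochondrially encoded mRNAs shifted it by -2.75. SNAPC3 at 10000 nM was then 0.07 (adjusted p = 0.70) and -2.13 (adjusted p = 1.4e-10), SNAPC5 was -0.43 (adjusted p = 0.00042) and -2.69 (adjusted p = 9.1e-10), and SNAPC1 was -1.05 (adjusted p = 0.011) and -3.24 (adjusted p = 2.5e-09). Such a scaling moves all genes of a well alike, so the distance of a member from the bulk stays nearly the same by construction. TPM is relative to the whole library. On that scale SNAPC1 at 46.9, 44.2 and 35.3 TPM and SNAPC5 at 31.2, 28.9 and 26.9 TPM at 10000 nM were below every DMSO well. SNAPC3 at 10.0, 11.5 and 8.48 TPM was not. SNAPC2 and SNAPC4 fell at 1000 and 10000 nM under each of these scalings.

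**Figure D3:**
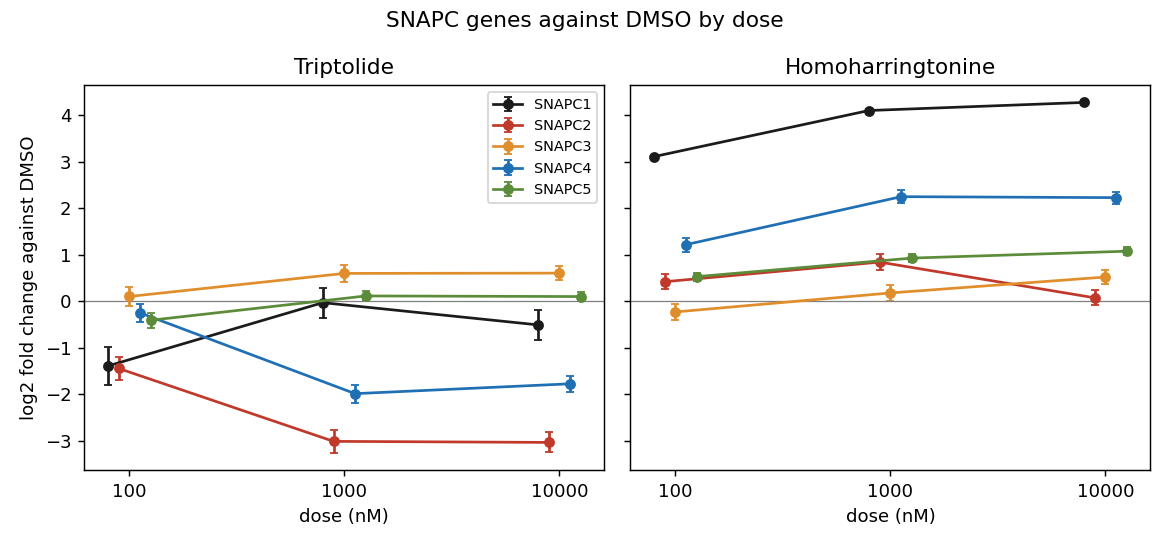
Log2 fold change against DMSO (TMM scaling) of each member by dose for triptolide and homoharringtonine. Bars are standard errors, SNAPC1 with homoharringtonine is drawn without one because it was not tested, and points are set slightly apart at each dose. SNAPC2 reaches -3.03 with triptolide and SNAPC1 4.27 with homoharringtonine at 10000 nM.

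The comparisons above share their 18 DMSO wells, so the 2 compounds were also compared directly at each dose, triptolide minus homoharringtonine. Of 12 tests on SNAPC2 to SNAPC5 9 passed, all lower with triptolide, beside 65.5% of all genes called in either direction at 100 nM, 66.8% at 1000 nM and 88.4% at 10000 nM. SNAPC4 differed by -1.38 ± 0.21 (adjusted p = 2.3e-05), -4.24 ± 0.24 (adjusted p = 3.3e-06) and -3.92 ± 0.08 (adjusted p = 2.4e-11). SNAPC2 differed by -1.78 ± 0.24 (adjusted p = 5e-06), -3.84 ± 0.32 (adjusted p = 1.7e-05) and -3.02 ± 0.10 (adjusted p = 3.1e-10). SNAPC5 differed by -0.86 ± 0.25 (adjusted p = 0.006), -0.83 ± 0.22 (adjusted p = 0.0093) and -0.89 ± 0.08 (adjusted p = 1e-06). At 100 nM its call did not hold with DESeq2 (adjusted p = 0.068) or without replicate 1 (adjusted p = 0.18), and at 1000 nM it did not hold without replicate 2 (adjusted p = 0.11). SNAPC3 did not pass at any dose. Its differences were 0.40 ± 0.25 (approximate 95% interval -0.09 to 0.88), 0.40 ± 0.31 (-0.20 to 1.01) and 0.17 ± 0.10 (-0.03 to 0.36). These intervals use the normal distribution and are too narrow for 3 wells against 3. The fitted difference of SNAPC1, given without a test, was -4.44, -4.14 and -4.70.

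Within each compound the dose trend was fitted per factor of 10 in dose over 9 wells, without DMSO. With homoharringtonine 3 of 4 members tested rose with dose, beside 44.3% of all genes called in either direction: SNAPC4 by 0.49 ± 0.13 log2 units per factor of 10 (adjusted p = 0.0098), SNAPC3 by 0.36 ± 0.10 (adjusted p = 0.016) and SNAPC5 by 0.26 ± 0.06 (adjusted p = 0.0064). SNAPC2 had -0.18 ± 0.15 (adjusted p = 0.32), and SNAPC1 had 0.57, not tested. With triptolide 2 of 5 members fell with dose, beside 24.1% of all genes: SNAPC2 by -0.81 ± 0.20 (adjusted p = 0.0098) and SNAPC4 by -0.77 ± 0.18 (adjusted p = 0.0074). SNAPC1 had 0.29 ± 0.23 (adjusted p = 0.37), SNAPC3 0.17 ± 0.14 (adjusted p = 0.41) and SNAPC5 0.18 ± 0.16 (adjusted p = 0.44). The trends rest on few wells: with homoharringtonine none was called without replicate 2 and 1 without replicate 3, and with triptolide none was called without replicate 1 or without replicate 3. Calls over all genes fell too: without replicate 1 the triptolide trend called 136 upward and 1113 downward of 14592 genes. With all wells it called 1006 and 2786 of 15720. Shares of all genes for the other trend fits without 1 replicate are not given here.

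With the other 4 compounds 1 of 60 tests passed, over 5 genes in 12 comparisons. SNAPC4 with 100 nM nilotinib stood at 30.8, 42.5 and 41.9 normalised CPM, with a log2 fold change of 0.63 ± 0.15 (adjusted p = 0.012). Of those wells 2 were above the highest DMSO well at 36.8, which was the shallow replicate 10. All 3 were above the other 17 DMSO wells, the highest of which was 29.9. The call did not hold without replicate 2 (adjusted p = 0.14) or without replicate 3 (adjusted p = 0.15). SNAPC4 was not called at higher doses of nilotinib, with 0.25 ± 0.17 (adjusted p = 0.52) at 1000 nM and -0.18 ± 0.15 (adjusted p = 0.47) at 10000 nM. The share of all genes called was 9.08%, 3.95% and 14.4% for nilotinib at 100, 1000 and 10000 nM, 4.77%, 0.0% and 7.65% for pyrazolanthrone, 0.0648%, 1.52% and 3.15% for MK-2206, and 0.0% at each dose of miglitol. In the comparisons without a call edgeR gave 1033 genes at an unadjusted p under 0.05 with 1000 nM pyrazolanthrone and 944, 1563 and 4195 with 100, 1000 and 10000 nM miglitol, and DESeq2 called 7 genes with the former and 1, 127 and 1 with the latter. For 10000 nM miglitol the fit with the replicate block, which uses DMSO replicates 1 to 3 only, called 8071 of 18014 genes. With the GC slope as a covariate 162 of 18519 genes had an unadjusted p under 0.05 there, and 0 were called. The slopes were -0.38 to -0.267 in the miglitol wells at 10000 nM, and 0.256, -0.017 and 0.288 in DMSO replicates 1, 2 and 3. The cause of the difference between these fits was not tested. SNAPC4 with 10000 nM pyrazolanthrone, at 17.5, 19.5 and 18.3, had a log2 fold change of -0.46 ± 0.16 that missed the threshold (adjusted p = 0.079) and passed with DESeq2 (adjusted p = 0.029). SNAPC1, the member with the widest spread between wells, had standard errors of 0.30 to 0.34 in these 12 comparisons and fitted values from -0.64 to 0.30, while SNAPC5, with standard errors of 0.09 to 0.10, stayed between -0.16 and 0.17. With the GC slope as a covariate SNAPC3 was also called with 100 nM nilotinib, at 0.32 (adjusted p = 0.016). Without the shallow libraries as well, SNAPC3 with 10000 nM MK-2206 at -0.26 (adjusted p = 0.048) and SNAPC1 with 10000 nM nilotinib at -0.40 (adjusted p = 0.047) were called.

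Ranked over the 19 conditions by mean level, the 3 homoharringtonine doses came first for SNAPC1, SNAPC4 and SNAPC5, in falling order of dose. For SNAPC1 the means were 3367 ± 755, 2943 ± 1291 and 1458 ± 513 normalised CPM (SD, n = 3), and the first 2 differed by less than their SD. They were followed by miglitol 10000 nM at 214.5 ± 29.1, and the lowest was triptolide 100 nM at 66.7 ± 16.2. For SNAPC4 the first 2 means, 118.3 ± 3.96 and 118.0 ± 24.4, were likewise within their spread, and triptolide 1000 nM was lowest at 6.37 ± 0.88. For SNAPC2 homoharringtonine 1000 nM was first at 66.5 ± 19.1 and the 3 triptolide doses were last. For SNAPC3 triptolide 10000 nM was first at 16.8 ± 1.22 and MK-2206 10000 nM last at 8.65 ± 1.45, while SNAPC5 ran from 41.9 ± 1.55 to 10.1 ± 9.29 with 100 nM triptolide, which holds the well at 0.

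The gene length that RSEM prints is the mean over a gene's transcripts weighted by their abundance, so it shifts with the mixture of transcripts and not with the level. Of 6 tests, 3 genes with more than 1 transcript and 2 compounds at 10000 nM, 2 passed. At an unadjusted p under 0.05 that was 1 of 3 members with each compound, beside 16.9% of 14163 genes of varying length with triptolide and 21.6% of 14242 with homoharringtonine. SNAPC2 was shorter with triptolide, at 1291 ± 12.9 bases (n = 3) against 1432 ± 43.7 (n = 18; exact permutation test, two-sided, adjusted p = 0.0045, from a p of 0.00075 that is the lowest possible with these sizes). The 3 wells, 1281 to 1306 bases, lay below all DMSO wells, the shortest of which was 1350. SNAPC5 was longer with homoharringtonine, at 969.6 ± 7.88 bases against 858.9 ± 67.7 (exact permutation p = 0.011, adjusted p = 0.032), within the DMSO range of 788 to 1041. The upper end of that range was the shallow DMSO replicate 10, from 14 counts. The next longest DMSO well was replicate 16 at 969.7 bases, while the homoharringtonine wells ran from 960.7 to 975.5. In DMSO wells the length of SNAPC5 fell with the GC slope of the library, with r = -0.851 (permutation p = 0.0001, adjusted p = 0.00016) and rho = -0.875 (permutation p = 5e-05, adjusted p = 0.0001), and r = -0.833 without the 2 farthest wells. That of SNAPC3 did too, with r = -0.916 (permutation p = 5e-05, adjusted p = 0.00013) and rho = -0.941 (permutation p = 5e-05, adjusted p = 0.0001), and r = -0.881 without the 2 farthest wells. That of SNAPC2 had r = 0.28 (permutation p = 0.27, adjusted p = 0.31) and rho = 0.157 (permutation p = 0.55, adjusted p = 0.6), and r = 0.288 without them. All 3 homoharringtonine wells at 10000 nM had slopes below every DMSO well, at -0.628 to -0.486, and the part of the slope in the length of SNAPC5 was not tested. With homoharringtonine the length of SNAPC2 was 1417 ± 17.1 (exact permutation p = 0.53, adjusted p = 0.63) and that of SNAPC3 2231 ± 387 against 1706 ± 421 in DMSO wells (exact permutation p = 0.059, adjusted p = 0.12).

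The genes that work with SNAPC were described by 7 lists of 73 symbols, of which 71 were matched: factors of snRNA promoters, TFIIIB with its repressor MAF1, RNA polymerase III subunits, Integrator subunits, the little elongation complex, snRNP export and assembly, and the noncoding genes that SNAPC serves. At 10000 nM triptolide 41 of the 62 genes tested fell and 8 rose, with a median log2 fold change of -1.13, beside 39.7% lower, 32.2% higher and a median of -0.17 over all genes. At 10000 nM homoharringtonine 38 of 62 rose and 14 fell, with a median of 0.60, beside 36.7% higher, 37.2% lower and a median of -0.05 over all genes. At 100 and 1000 nM 35 of 62 and 42 of 63 fell with triptolide, and 36 of 62 rose at each of these doses with homoharringtonine. With the GC slope as a covariate 25 of 62 rose at 10000 nM, beside 32.8% of all genes in that fit.

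Among snRNA promoter factors 7 of 10 fell with triptolide, and 8 of 10 rose and none fell with homoharringtonine. GTF2B, the TFIIB that bridges polymerase II and TBP, was at 20.8 ± 5.39 normalised CPM in DMSO wells (n = 18), 0.406 ± 0.134 with 10000 nM triptolide (log2 fold change -5.70 ± 0.36, adjusted p = 4.4e-13) and 103.3 ± 6.38 with 10000 nM homoharringtonine (2.28 ± 0.17, adjusted p = 2.2e-11). GTF2E1, a TFIIE subunit, changed by -4.25 ± 0.15 with triptolide (adjusted p = 5.9e-18), and GTF2A2, a TFIIA subunit, by 0.63 ± 0.10 (adjusted p = 8.7e-06). TBP, which SNAPC recruits, rose by 1.90 ± 0.09 with homoharringtonine (adjusted p = 4.6e-15).

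BRF2, the TFIIIB subunit used at SNAPC-dependent polymerase III promoters, moved as widely: it was at 22.3 ± 3.69 normalised CPM in DMSO wells, 0.370 ± 0.047 with triptolide (-5.97 ± 0.20, adjusted p = 2.7e-18) and 70.8 ± 2.63 with homoharringtonine (1.60 ± 0.09, adjusted p = 1.2e-13). BRF1, its counterpart at tRNA genes, fell by 2.94 on the log2 scale with triptolide (adjusted p = 2.4e-13), MAF1 rose by 0.33 ± 0.12 with it (adjusted p = 0.018), and BDP1, a TFIIIB subunit, rose by 1.45 ± 0.24 with homoharringtonine (adjusted p = 8.3e-06). Of 4 genes in that list 3 fell and 1 rose with triptolide, and 3 rose and none fell with homoharringtonine.

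Of 13 RNA polymerase III subunits 10 fell and 3 rose with triptolide, and with homoharringtonine 5 rose and 7 fell, with a median of -0.48. POLR3B and POLR3A, which form the catalytic centre, changed by -4.08 ± 0.20 and -2.36 ± 0.09 with triptolide (adjusted p = 3.4e-15 and 1.3e-17), while the alternative subunits POLR3G and POLR3GL rose by 0.48 ± 0.17 and 0.38 ± 0.12 (adjusted p = 0.012 and 0.0065). With homoharringtonine POLR3F and CRCP rose by 1.45 ± 0.08 and 1.31 ± 0.07 (adjusted p = 6.5e-14 and 4.6e-14), and POLR3E changed by -2.08 ± 0.11 (adjusted p = 4e-14).

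Integrator, which cuts the 3′ end of nascent snRNAs, had 9 of 14 subunits lower and 2 higher with triptolide, and 8 higher and 4 lower with homoharringtonine. INTS1 moved opposite to most, from 519.7 ± 71.7 normalised CPM in DMSO wells to 1496 ± 127 with triptolide (1.48 ± 0.11, adjusted p = 1.3e-11) and 227.7 ± 18.7 with homoharringtonine (-1.22 ± 0.13, adjusted p = 1e-08). INTS11, the endonuclease, rose by 0.43 ± 0.12 with triptolide (adjusted p = 0.0024), while INTS5 and INTS2 changed by -5.05 ± 0.17 and -2.10 ± 0.29 (adjusted p = 5e-18 and 4.4e-07). INTS6 and INTS12 rose by 3.20 ± 0.20 and 2.27 ± 0.25 with homoharringtonine (adjusted p = 5.7e-13 and 1.3e-08), and INTS10 changed by -1.05 ± 0.10 (adjusted p = 2.3e-09). In the little elongation complex, which promotes snRNA transcription, 3 of 5 genes fell with triptolide and 4 rose with homoharringtonine: ELL changed by -3.38 ± 0.18 and 1.45 ± 0.10 (adjusted p = 1.4e-14 and 1.5e-12), ICE1 by -3.03 ± 0.18 with triptolide (adjusted p = 1.8e-13), and ELL2 by 1.94 ± 0.15 with homoharringtonine (adjusted p = 2.7e-11).

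In snRNP export and assembly 8 of 13 genes fell and 1 rose with triptolide, and 9 rose and 3 fell with homoharringtonine. DDX20, the Gemin3 helicase of the SMN complex, changed by -4.88 ± 0.28 and 1.77 ± 0.16 (adjusted p = 7.8e-14 and 4.7e-10). GEMIN7 changed by -4.40 ± 0.18 and STRAP by 0.66 ± 0.17 with triptolide (adjusted p = 8.4e-17 and 0.0013), and GEMIN6 and GEMIN4 changed by -1.63 ± 0.25 and -1.50 ± 0.12 with homoharringtonine (adjusted p = 3e-06 and 5.8e-11). SMN1 had 1.52 ± 0.17 with homoharringtonine (adjusted p = 2e-08), a value that is uncertain because SMN2 is nearly identical. Of the 12 matched noncoding genes that SNAPC serves only SNORD3A, RMRP and RPPH1 passed the filter in both comparisons at 10000 nM. SNORD3A, the U3 RNA gene, was low, at 1.17 ± 0.49 normalised CPM in DMSO wells, and changed by -1.68 ± 0.39 with triptolide and 1.10 ± 0.28 with homoharringtonine (adjusted p = 0.00043 and 0.0013). RMRP and RPPH1, at medians of 116.0 and 9.72 TPM in DMSO wells, passed the test with neither compound.

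**Figure D4:**
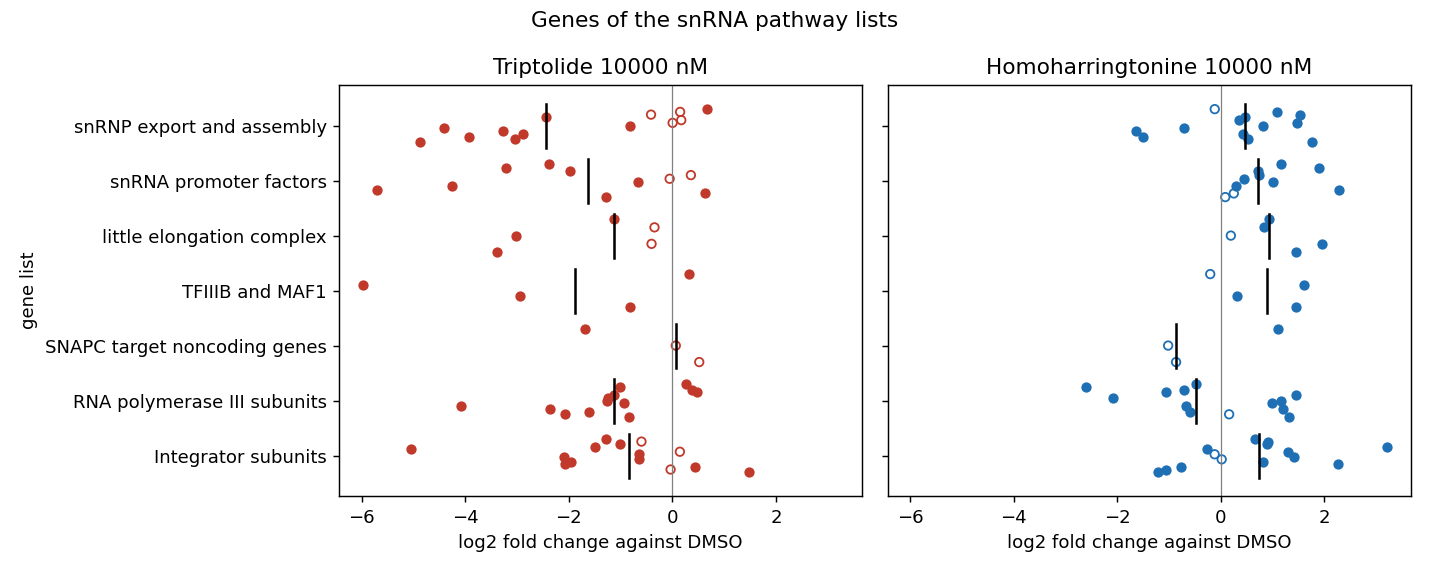
Log2 fold change against DMSO (TMM scaling) of each gene tested in the 7 pathway lists at 10000 nM of triptolide and of homoharringtonine. Filled points passed the test, open points did not, and black bars mark list medians. The list medians lie below 0 with triptolide, except for the noncoding genes at 0.06, and above 0 with homoharringtonine, except for polymerase III at -0.48 and the noncoding genes at -0.87.

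Over the means of 19 conditions, and without the shallow libraries, the members' patterns were compared with those of 9398 protein-coding genes as a description. The 19 means are of log2(normalised CPM + 1) and share 1 scaling, and r was also computed over the 13 conditions without triptolide and homoharringtonine. SNAPC1 was most like PDLIM5 (Pearson's r = 0.980), ZNF226 (0.980), STX12 (0.979), LARP1B (0.978) and YAF2 (0.976). PDLIM5 went from a mean of 35.3 normalised CPM in DMSO wells to 155.0 with 10000 nM homoharringtonine, a smaller rise than that of SNAPC1. Over the 13 conditions its r with SNAPC1 was 0.394, and for the other 4 it was 0.639 to 0.735. SNAPC2 was most like BRF1 (0.993), the TFIIIB subunit named above, BAHD1 (0.992) and CTDP1 (0.992), and here the 13 conditions alone gave 0.924, 0.966 and 0.968. SNAPC3 was most like EEF1AKMT2 (0.945), STT3B (0.919) and POGLUT1 (0.915), with 0.928, 0.838 and 0.795 over the 13. SNAPC4 was most like NCKAP5L (0.984), SBNO2 (0.978) and SS18L1 (0.973), with 0.840, 0.702 and 0.849 over the 13, and SNAPC5 most like H2AC6 (0.970), MTMR10 (0.956) and TSG101 (0.953). H2AC6 rose from 27.4 to 366 normalised CPM with 10000 nM homoharringtonine, and without the 2 compounds its r with SNAPC5 was 0.011.

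Between members, r over the 19 conditions was highest for SNAPC1 with SNAPC5 at 0.956, followed by SNAPC2 with SNAPC4 at 0.805 and SNAPC1 with SNAPC4 at 0.746. It was lowest for SNAPC2 with SNAPC3 at -0.636. Over the 13 conditions without triptolide and homoharringtonine, SNAPC1 with SNAPC5 had 0.518 and SNAPC1 with SNAPC4 turned to -0.459. Over the same 13, SNAPC2 and SNAPC4, which share a high GC content, had 0.841, SNAPC1 and SNAPC3, which share a low one, went from 0.122 to 0.657, and SNAPC1 with SNAPC2 went from 0.357 to -0.628. The part of base composition in these values was not tested.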

How the data were processed

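The 5 members and the 7 pathway lists were chosen with earlier results of these data known. The files were deposited by the authors as 1 RSEM table per well, with GRCh38 named in the submitters' processing notes, which also name HTSeq and DESeq2. Versions, the annotation release and the strand setting are not given in the sources used here. The deposited expected counts, which are not normalised, were rounded to whole numbers for the tests. The deposited TPM values, which the authors scaled per length and library, were used for levels between genes, and the deposited FPKM values as an alternative to them. The deposited RSEM length was tested as it stands. Identifiers were matched to GENCODE release 44.

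Each compound and dose was compared with 18 DMSO wells by edgeR 4.0.16's quasi-likelihood F test (TMM, filterByExpr with a minimum count of 10, Benjamini-Hochberg over all genes tested, R 4.3.3). A gene was called at an adjusted p under 0.05. Standard errors were taken as the size of the log2 fold change over the square root of F. Direct comparisons used the 3 wells of each compound, and trends used log10 dose. Normalised CPM was TMM-scaled over all 72 wells. TPM neighbours were tested by sign flips, lengths by exact permutation (Python 3.11.15, scipy 1.17.1). Median depth was 38369495 expected counts, and counting intervals cover counting error only. Of 207 pairs of wells within groups 0 were identical, and the lowest chi-square per degree of freedom between a pair was 1.35. Named pathway genes are up to 2 largest rises and 2 largest falls per list among those called at 10000 nM of triptolide or homoharringtonine (1 gene that this rule names is not reported here), and similar genes are the 5 (SNAPC1) or 3 (others) protein-coding genes of highest Pearson's r with a mean of at least 10 CPM. The scripts were tested on simulated data. Alternatives were DESeq2 1.42.0, other filters and scalings, a replicate block, 1 fit over all wells, and leaving out wells. A GC slope covariate was added after seeing the data.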

Additional observations from a re-analysis of the deposited data

How the results depend on the processing

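Across alternatives, 33 tests of single members were called, and 318 of their 352 values under an alternative kept direction and call, 30 lost the call and 4 changed sign. Those 4 were SNAPC3 with triptolide at 1000 and 10000 nM under mitochondrial scaling, -1.85 and -2.13, and SNAPC3 with 10000 nM homoharringtonine with the GC slope as a covariate, -0.072, and also without the shallow libraries, -0.076. Of the results not called, 37 values under an alternative gained a call in the same direction, and 8 passed the test with the sign changed: SNAPC5 with 1000 and 10000 nM triptolide by library size, -0.34 and -0.43, and by mitochondrial mRNAs, -2.36 and -2.69; SNAPC3 with 100 nM triptolide by mitochondrial mRNAs, -1.53; SNAPC3 between the compounds at 10000 nM by library size, -0.41; and SNAPC1 with 1000 nM triptolide, 0.48 with the replicate block and 0.41 with the GC slope and without the shallow libraries.

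SNAPC1 with 10000 nM homoharringtonine was 3.53 with the GC slope and 3.61 with it and without the shallow libraries. Leaving out 1 replicate, DMSO replicate 10 included, gave 4.08 to 4.39. With homoharringtonine the count of 9 calls became 4 with a fold threshold. With triptolide the 9 calls became 15 by mitochondrial scaling, which called 91.7% of all genes over the 3 doses against 65.4% by TMM. With 10 counts in every well they became 4 of 8, beside 79.9% of all genes over the 3 doses. In that fit no member could be tested at 100 nM, and SNAPC3 could be tested at no dose. For the other 4 compounds the 1 call became 2 with DESeq2 (2.78% of all genes), 6 by mitochondrial scaling (5.38%), 2 with the GC slope (7.96%) and 4 with it and without shallow libraries (9.75%). It became 0 with a fold threshold. Without 1 replicate it ranged from 0 to 2, beside 3.85%, 1.63% and 1.68% of all genes without replicates 1, 2 and 3. Without 1 replicate the homoharringtonine trend calls ranged from 0 to 3 and the triptolide ones from 0 to 2, ranges given without shares of all genes. The order of levels had 3 calls with and without DMSO replicate 10, where the near-equal SNAPC2 and SNAPC5 changed places. Of pathway genes, 62 were lower with triptolide by mitochondrial scaling, beside 98.3% of all genes, and 25 were higher with homoharringtonine with the GC slope, beside 32.8%. The cause of these changes was not tested.

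The replicate numbers did not pair the wells: deviations of same-numbered compound and DMSO wells correlated at -0.784 to 0.683, and 2 of 9 homoharringtonine wells and 4 of 7 triptolide wells correlated best with their own number. With the replicate block, against DMSO replicates 1 to 3 only, 8 of 12 tests were called with homoharringtonine, 11 of 15 with triptolide and 9 of 60 with the other compounds. Those counts stand beside 65.0%, 59.5% and 9.33% of all genes in those fits. SNAPC1 with homoharringtonine was then 3.50, 4.47 and 4.70. Between the compounds 9 of 12 tests were called with the block. Of all genes, 3529 were called higher and 6288 lower with triptolide out of 17712 at 100 nM. The counts were 5174 and 7605 of 18699 at 1000 nM, and 7402 and 8357 of 18448 at 10000 nM. With the block 3 and 2 trends were called, given here without the share of all genes. The shallow wells limit the values at 100 nM triptolide most, where 3 counts in replicate 2 amount to 42.4 CPM before TMM scaling.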
